A study of Mus musculus with 6 samples.

Results

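The EGF receptor and its ligands were followed here as 8 genes of a mouse RNA count table of 24516 genes: the ligand genes Hbegf, Tgfa, Ereg, Areg and Nrg1 and the receptor genes Egfr, Erbb2 and Erbb3. They were chosen by gene symbol, and all 8 were found. They were measured in iMGT-Myh6-eGFP-MEF cells, a mouse embryonic fibroblast line. Added doxycycline (1 ug/mL) induces Mef2c, Gata4 and Tbx5 in it, transcription factors known for driving fibroblasts towards a cardiomyocyte fate, and an eGFP reporter is named for the cardiac myosin gene Myh6. There were 3 groups with 2 libraries each, and all 3 received siRNA a day ahead of doxycycline and carried the same induced factors: siJunb, with Junb knocked down (its protein is part of AP-1, a transcription factor), siH1f0, with H1f0 knocked down (a linker histone gene), and siControl, with control siRNA. By the sample labels the cells were harvested at day 1 of induction, but the series text speaks of day 3 and of sorted GFP+ cells, a disagreement that was not resolved. All libraries came from a single line, and the promoter that drives the induced factors is not given in the sources used here. The replicates are labelled biological, with no statement of how the cultures were separated, so p-values measure the spread between these libraries.

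EGF-family ligands are made as membrane-anchored precursors that proteases of the ADAM family cut free. The released ligand pairs up receptor tyrosine kinases of the ErbB family, which then signal through RAS and MAP kinases and through PI3 kinase. Egfr binds Tgfa and Areg, both Egfr and Erbb4 bind Hbegf and Ereg, and Erbb3 and Erbb4 bind Nrg1. Erbb2 has no known ligand of its own and serves as the favoured partner of the other receptors, and Erbb3 has little kinase activity. In the heart, Nrg1 from the endothelium acting on Erbb2 and Erbb4 in cardiomyocytes is required for trabeculation, and Hbegf and Egfr are required for normal valves.

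What makes the ligands a family is the EGF-like module, a short stretch held together by cysteines. The annotated coding sequence (GENCODE M21, GRCm38) was searched for its spacing of 6 cysteines, taking the first match in 1 transcript per gene. Each of the 5 ligand genes had a match (in Hbegf it has 108 bases), in every case split over 2 exons. The modules of 4 of them are shown as coding DNA, 5′ to 3′, to show what these genes share, with the cysteine codons in capitals.
Tgfa: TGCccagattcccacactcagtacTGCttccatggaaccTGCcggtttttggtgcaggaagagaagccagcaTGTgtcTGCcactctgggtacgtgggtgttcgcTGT
Ereg: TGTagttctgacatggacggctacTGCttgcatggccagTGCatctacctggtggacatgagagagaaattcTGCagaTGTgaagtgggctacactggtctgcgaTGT
Areg: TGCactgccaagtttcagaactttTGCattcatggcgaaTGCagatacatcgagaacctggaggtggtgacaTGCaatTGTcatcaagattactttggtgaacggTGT
Nrg1: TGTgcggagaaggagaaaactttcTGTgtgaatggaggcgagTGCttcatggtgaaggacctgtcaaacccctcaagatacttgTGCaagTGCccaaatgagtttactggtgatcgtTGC
The modules of Tgfa (chr6:86263200-86269960, plus strand), Ereg (chr5:91088496-91089111, plus strand) and Areg (chr5:91143614-91144364, plus strand) had 108 bases each, and that of Nrg1 (chr8:31837698-31849398, minus strand) had 120, with 4 more codons between its cysteines. Ereg and Areg, which lie next to each other on chromosome 5, were identical at 53.7% of the 108 bases, against 47.2% for Areg and Tgfa and 45.4% for Ereg and Tgfa. The receptor genes lie on chromosome 11 (Egfr, 16752203 to 16913907; Erbb2, 98412484 to 98437716) and chromosome 10 (Erbb3, 128567523 to 128589635).

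The libraries held from 48690447 to 85979630 counts, and 13427 genes entered the test. The siRNA targets fell in the libraries labelled with them: Junb was at 10.5 and 8.73 CPM (counts scaled to the library total) in siJunb, 30.4 and 31.7 CPM in siH1f0, and 39.5 and 35.6 CPM in siControl, and H1f0 was at 653 and 638, 52.3 and 55.3, and 808 and 741 CPM in the same groups. In edgeR's quasi-likelihood test, described with the first comparison, the log2 fold change of Junb in siJunb was -1.93 ± 0.09 (adjusted p = 1.60e-05) and that of H1f0 in siH1f0 was -3.86 ± 0.06 (adjusted p = 7.12e-09). H1f0 was also lower in siJunb (-0.23; adjusted p = 0.0210, lost without any single siJunb or siH1f0 library, up to 0.198), while Junb in siH1f0 (-0.29; 0.0778) did not pass. The siControl libraries differed from each other beyond counting noise more than the other pairs did (chi-square per degree of freedom 74.6, against 3.80 in siJunb and 3.85 in siH1f0). They did not stand out by the SD over genes of the log2 ratio between replicates (0.312, against 0.317 in siJunb and 0.284 in siH1f0). Fibroblast markers summed to 4682 to 4994 CPM per library and 6 of 7 were above 1 CPM, but Thy1 had at most 3 counts in every library. Col3a1 was only just above that mark, at 1.24 to 1.66 CPM, and Vim and Col1a1 made up most of each sum. Among the 6 tested, Pdgfra rose in siJunb, Col1a2 rose in siH1f0, and 1 was higher and 3 were lower in siH1f0 than in siJunb. For this and the next lists, the shares of all tested genes called (adjusted p under 0.05) were 8.63% higher and 7.82% lower in siJunb. They were 2.27% and 4.27% in siH1f0, and 12.2% and 13.8% in siH1f0 against siJunb. Cardiomyocyte markers summed to 116 and 118 CPM in siJunb, 158 and 167 CPM in siH1f0, and 159.6 and 140.4 CPM in siControl, with 3 of 5 tested members lower in siJunb, 1 higher in siH1f0 and 4 higher in siH1f0 than in siJunb. All 7 epithelial markers had at most 3 counts in every library. Macrophage markers summed to 1.47 and 1.66 CPM in siJunb, 1.47 and 1.28 CPM in siH1f0, and 2.12 and 1.2 CPM in siControl, with Ptprc, Adgre1 and Tyrobp at no more than 3 counts. Of these markers Csf1r, at 0.579 and 0.678 CPM in siJunb, 0.253 and 0.213 CPM in siH1f0, and 0.256 and 0.227 CPM in siControl, rose in siJunb (log2 fold change 1.39) and was lower in siH1f0 than in siJunb (-1.47). Schwann cell and neural crest markers summed to 1.15 to 1.70 CPM and endothelial markers to 0.116 to 0.304 CPM, with Sox10, Foxd3, Cdh5 and Kdr at no more than 3 counts. Whether the shifts in marker RNA bear on the results for the 8 genes was not tested.

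Levels were compared between genes as RPKM, the CPM per kilobase of the deposited gene length. That length ran from 1215 bases for Areg to 6438 for Egfr. For Nrg1 it was 2103 bases, where the transcript searched above encodes 700 residues. Whether each length covers the whole transcript was not checked, which limits comparisons of Nrg1 with the other genes. Erbb2 stood highest in every group, at 25.9 ± 0.721 RPKM in siJunb, 29.7 ± 1.51 RPKM in siH1f0 and 27.0 ± 0.483 RPKM in siControl (SD, n = 2 each). Egfr, the receptor after which the family is named, stood at 2.33 ± 0.137, 1.72 ± 0.247 and 1.69 ± 0.180 RPKM in those groups. The level of Erbb2 was therefore 10.5 to 18.5 times that of Egfr in the single libraries. Erbb3 was at 0.308 ± 0.0381, 0.263 ± 0.0611 and 0.221 ± 0.00176 RPKM. Erbb4, the other receptor for Nrg1 and Hbegf, had 0 counts in all 6 libraries, where a count of 0 allows up to 3 counts per library.

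Among the ligands Hbegf was highest, followed in siJunb and siControl by Tgfa and Ereg and in siH1f0 by Ereg and Tgfa. In siControl the order from high to low was Erbb2, Hbegf, Tgfa, Ereg, Egfr, Nrg1, Erbb3 and Areg, and only Egfr (1.56 and 1.82 RPKM) and Nrg1 (1.42 and 1.88 RPKM) overlapped among neighbours in it. In siJunb and in siH1f0 no neighbours overlapped. The 5 ligands summed to 30.9 and 30.0 RPKM in siJunb, 28.9 and 27.5 RPKM in siH1f0, and 38.8 RPKM in each siControl library. Hbegf made up 48.7% and 51.5% of that sum in siJunb, 62.8% and 61.4% in siH1f0, and 65.4% and 60.7% in siControl. Tgfa made up 26.1% and 23.6% in siJunb, 11.3% and 12% in siH1f0, and 16.4% and 18.3% in siControl. These shares describe RNA levels only.

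**Figure D1:**
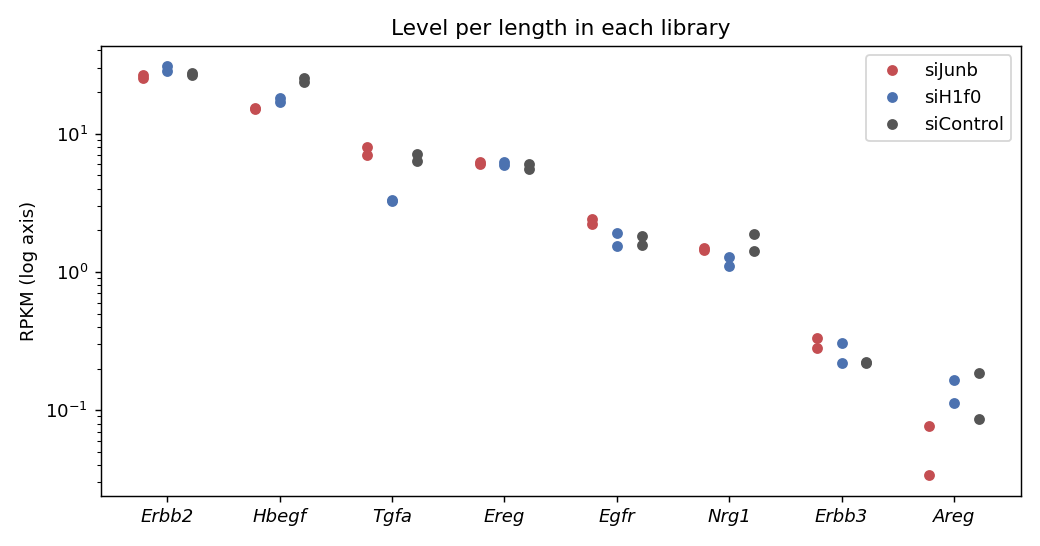
RPKM (log axis) of the 8 genes in each library, coloured by group, with genes ordered by their siControl level. Erbb2 lies between 25.4 and 30.7 RPKM in all 6 libraries, Areg lies below 0.2 RPKM, and Tgfa drops below Ereg in siH1f0, where it is at 3.26 and 3.29 RPKM.

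Setting siJunb against siControl asks which of these genes depend on Junb after induction of the cardiac factors. Hbegf, which encodes heparin-binding EGF-like growth factor, fell in siJunb, and Egfr rose. A gene was called at an adjusted p under 0.05 in edgeR's quasi-likelihood test with Benjamini-Hochberg adjustment over all 13427 genes. By that rule 1 of the 8 genes rose (background 8.63% of tested genes called higher) and 1 fell (background 7.82% called lower), 2 in all against a background of 16.5% called in either direction, which gives no sign of a share of the 8 genes beyond the background. The median log2 fold change of the 8 genes was 0.05, against 0.00 over all tested genes. Total-count scaling moved the split of all called genes to 884 higher and 1369 lower, against 1159 and 1050, and left the 2 calls in place.

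Hbegf (chromosome 18, 36504927 to 36515805) was at 35.8 and 36.6 CPM in siJunb, against 60.2 and 55.9 CPM in siControl. Both siJunb libraries lay below both siControl libraries. The mean was 36.2 ± 0.607 CPM in siJunb and 58.0 ± 3.02 CPM in siControl (SD, n = 2 each), a log2 fold change of -0.64 ± 0.06 (SE; edgeR adjusted p = 5.12e-04), or 0.640 of the siControl level. That difference passed under every alternative run, with adjusted p up to 0.0196 when a library was left out. In these bulk libraries fewer cells of a type and less RNA per cell cannot be told apart.

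Egfr was at 14.4 and 15.6 CPM in siJunb, against 10.1 and 11.7 CPM in siControl. The groups did not overlap. The mean was 15.0 ± 0.884 CPM in siJunb and 10.9 ± 1.16 CPM in siControl (SD, n = 2 each), a log2 fold change of 0.50 ± 0.12 (SE; edgeR adjusted p = 0.0245), or 1.41 times the siControl level. Egfr lost its call without siJunb 1 (adjusted p = 0.109) and without siJunb 2 (0.176), with log2 fold changes of 0.38 to 0.61 over the 6 libraries left out in turn.

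The other ligands did not pass in siJunb. Tgfa, which encodes transforming growth factor alpha, was at 36.7 and 32.1 CPM in siJunb, against 28.9 and 32.3 CPM in siControl, and the groups overlapped. Its log2 difference of 0.21 (95% interval 0.01 to 0.40, edgeR adjusted p = 0.133) was 0.29 without siControl 2. Ereg, which encodes epiregulin, had 25.8 and 24.8 CPM in siJunb, against 23.0 and 25.0 CPM in siControl, with overlap. Its difference of 0.11 (interval -0.05 to 0.27, edgeR adjusted p = 0.311) was 0.18 without siControl 2. The start of Ereg overlaps another annotated gene, and reads there cannot be told apart without the strand setting. Nrg1, which encodes neuregulin 1, had 3.13 and 3.04 CPM in siJunb, against 2.99 and 3.95 CPM in siControl, a difference of -0.13 (interval -0.52 to 0.27; adjusted p = 0.653). Areg, which encodes amphiregulin, had 6 and 2 counts in siJunb and 9 and 15 counts in siControl. It passed the filter on low counts through siH1f0 1 and siControl 2, and the interval of its difference ran from -2.80 to 0.55 (adjusted p = 0.329), so a change of that size was not detectable at this depth.

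The other receptor genes did not pass either. Erbb2 was at 132 and 127 CPM in siJunb, against 137 and 133 CPM in siControl, a log2 difference of -0.02 (95% interval -0.14 to 0.10; edgeR adjusted p = 0.824). Its libraries did not overlap as plain CPM, by a margin smaller than the spread within either group. Erbb3 was at 1.35 and 1.13 CPM in siJunb, against 0.884 and 0.894 CPM in siControl, or 86 and 55 counts against 76 and 59. The groups did not overlap, and the log2 difference was 0.52 with an interval from -0.04 to 1.08 (adjusted p = 0.184). In all, the groups did not overlap for 5 of the 8 genes, against a background of 57.5% of tested genes.

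**Figure D2:**
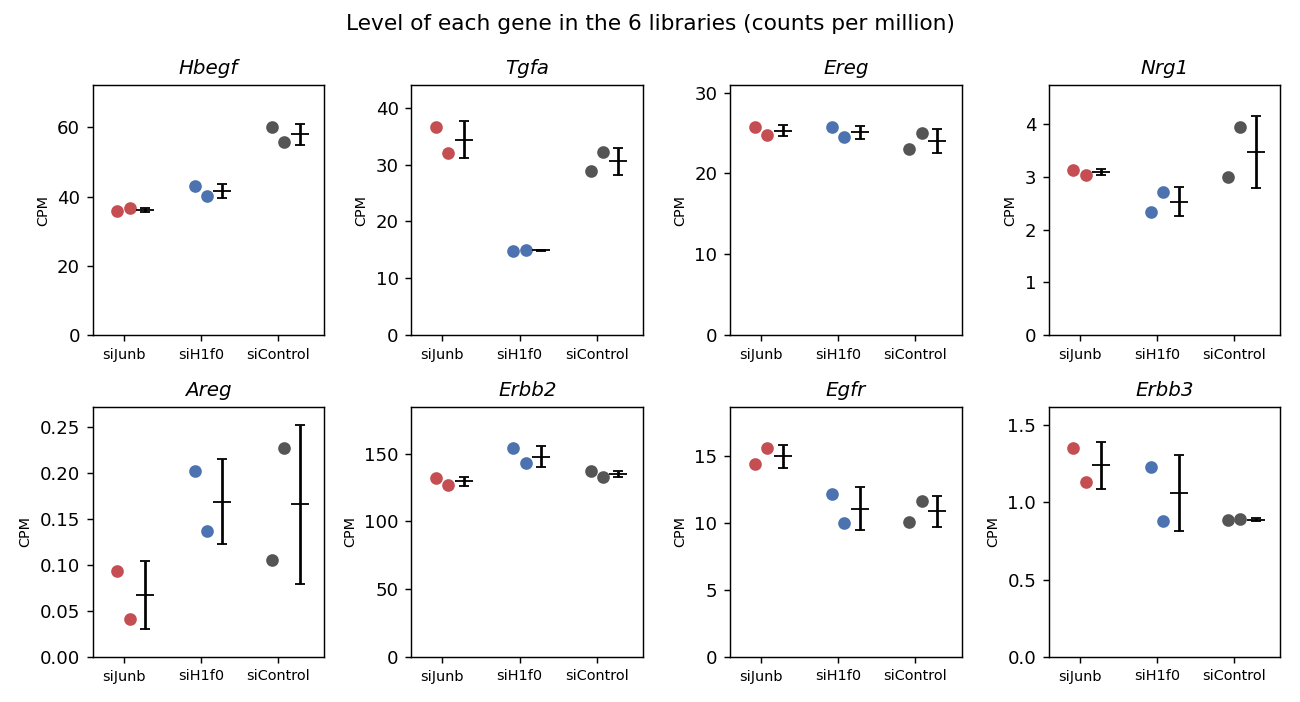
CPM of each gene in the 6 libraries (coloured points, 1 panel per gene, axes from 0) with the mean and SD of each group in black. Hbegf lies lower in both knockdowns than in siControl, Tgfa lies lowest in siH1f0, at 14.8 and 15.0 CPM, and Egfr lies higher in siJunb, at 14.4 and 15.6 CPM.

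The question for siH1f0 against siControl is which of the genes depend on the linker histone. Tgfa fell by 1.05 and Hbegf fell by 0.49 on the log2 scale. None of the 8 genes rose (background 2.27% called higher) and 2 fell (background 4.27% called lower; 6.55% in either direction). At an unadjusted p under 0.05 in edgeR's test, 1 gene was higher (Erbb2) and 3 were lower (Nrg1 besides), while DESeq2 and limma-voom each called 0 higher and 2 lower. The share of all genes at that unadjusted p was not computed. Over all 13427 genes DESeq2 called 474 higher and 720 lower, and limma-voom called 317 higher and 544 lower. The median log2 fold change of the 8 genes was 0.03, against 0.00 over all tested genes.

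Tgfa was at 14.8 and 15.0 CPM in siH1f0, against 28.9 and 32.3 CPM in siControl. The siH1f0 libraries lay far below both siControl libraries and close to each other. The mean was 14.9 ± 0.103 CPM in siH1f0 and 30.6 ± 2.40 CPM in siControl (SD, n = 2 each), a log2 fold change of -1.05 ± 0.09 (SE; edgeR adjusted p = 3.83e-04), or 0.482 of the siControl level. Tgfa kept its call whichever of the 6 libraries was left out, with log2 fold changes of -1.14 to -0.97 and adjusted p up to 0.0113.

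Hbegf was at 43.1 and 40.1 CPM in siH1f0, against 60.2 and 55.9 CPM in siControl, and the groups did not overlap. The mean was 41.6 ± 2.10 CPM in siH1f0 and 58.0 ± 3.02 CPM in siControl (SD, n = 2 each), a log2 fold change of -0.49 ± 0.06 (SE; edgeR adjusted p = 0.00274), or 0.710 of the siControl level. It lost its call without siH1f0 2 (-0.44, adjusted p = 0.0660). This comparison and that of siJunb share the siControl libraries, so the lower Hbegf in both is not 2 independent observations.

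Nrg1 was at 2.34 and 2.72 CPM in siH1f0, against 2.99 and 3.95 CPM in siControl. The groups did not overlap, and its log2 difference of -0.46 (95% interval -0.86 to -0.07; edgeR adjusted p = 0.159) did not pass. It passed with no count filter (edgeR adjusted p = 0.0335), where 1921 of 17713 genes were called, against 879 of 13427 with the filter. Without siControl 1, the siControl library with the lower Nrg1 level, the difference was -0.66. Ereg was at 25.7 and 24.5 CPM in siH1f0, against 23.0 and 25.0 CPM in siControl, and its interval ran from -0.11 to 0.21 (adjusted p = 0.720). Areg had 12 and 9 counts in siH1f0 and 9 and 15 counts in siControl, with an interval from -1.31 to 1.42 (adjusted p = 0.970).

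Egfr was at 12.2 and 9.98 CPM in siH1f0, against 10.1 and 11.7 CPM in siControl. The groups overlapped, and the interval of the log2 difference ran from -0.26 to 0.29 (edgeR adjusted p = 0.962). Erbb2 was at 154 and 143 CPM in siH1f0, against 137 and 133 CPM in siControl, without overlap. Its log2 difference of 0.12 (interval 0.00 to 0.25, edgeR adjusted p = 0.216) did not pass. It was 0.13 without siControl 1 and 0.11 without siControl 2. Erbb3 was at 1.23 and 0.882 CPM in siH1f0, against 0.884 and 0.894 CPM in siControl, with an interval from -0.33 to 0.79 (adjusted p = 0.627). In all, the groups did not overlap for 4 of the 8 genes, against a background of 50.7%.

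**Figure D3:**
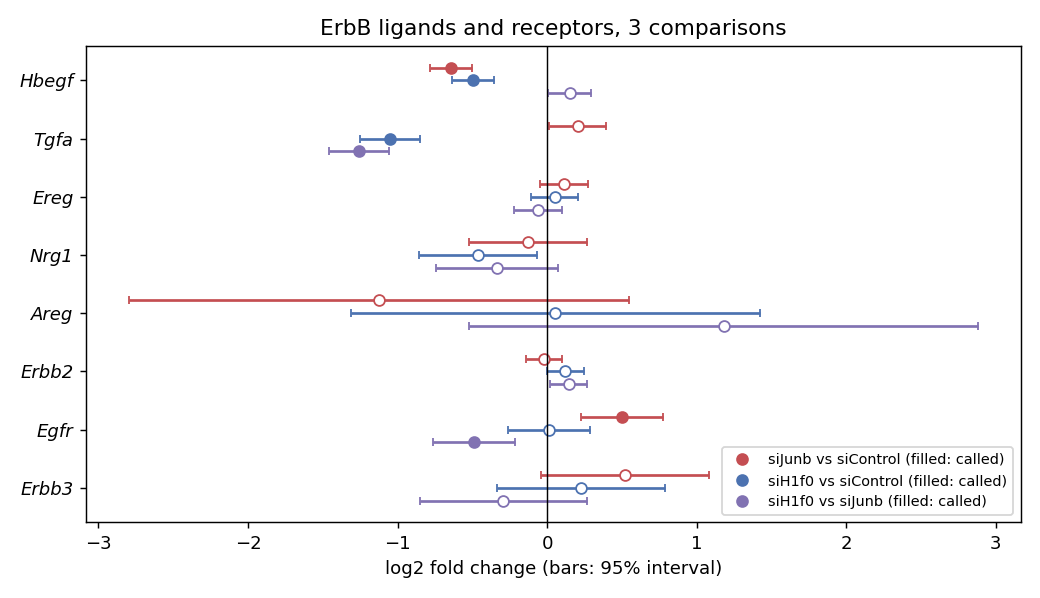
log2 fold change of each gene in the 3 comparisons, with 95% intervals as bars and called differences as filled points. Called are Hbegf (-0.64) and Egfr (0.50) in siJunb, Tgfa (-1.05) and Hbegf (-0.49) in siH1f0, and Tgfa (-1.26) and Egfr (-0.49) in siH1f0 against siJunb; the intervals of Areg are the widest.

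Whether the knockdowns differ from each other was tested directly, siH1f0 against siJunb. Tgfa and Egfr were both lower in siH1f0. None of the 8 genes was called higher (background 12.2%) and 2 were called lower (background 13.8%; 25.9% in either direction), which is close to the background share. At an unadjusted p under 0.05 in edgeR's test 2 were higher (Hbegf and Erbb2) and 2 were lower, while DESeq2 and limma-voom each called 0 higher and 2 lower. The share of all genes at that unadjusted level was not computed. Over all 13427 genes DESeq2 called 1631 higher and 1804 lower, and limma-voom called 1508 higher and 1788 lower. The median log2 fold change was -0.18, against 0.00 over all tested genes. Tgfa was at 14.8 and 15.0 CPM in siH1f0, against 36.7 and 32.1 CPM in siJunb, a log2 fold change of -1.26 ± 0.09 (SE; edgeR adjusted p = 4.70e-05), or 0.418 of the siJunb level. This call held without each of the 6 libraries in turn (adjusted p up to 0.00170). Egfr was at 12.2 and 9.98 CPM in siH1f0, against 14.4 and 15.6 CPM in siJunb, a log2 fold change of -0.49 ± 0.12 (SE; adjusted p = 0.0192). The groups did not overlap, but Egfr lost its call without siJunb 1 (adjusted p = 0.0716), siJunb 2 (0.133) or siH1f0 2 (0.154).

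For Hbegf the knockdowns were not shown to differ. It was at 43.1 and 40.1 CPM in siH1f0, against 35.8 and 36.6 CPM in siJunb, without overlap, and the log2 difference was 0.15 (95% interval 0.01 to 0.29; edgeR adjusted p = 0.110). Erbb2 was at 154 and 143 CPM in siH1f0, against 132 and 127 CPM in siJunb, with a log2 difference of 0.14 (interval 0.02 to 0.27; adjusted p = 0.0819). Hbegf and Erbb2 both passed as higher in siH1f0 when fitted on the 4 libraries compared alone (edgeR adjusted p = 0.00908 and 3.54e-04). That fit called 6416 of 13204 genes, against 3484 of 13427 with all libraries. Both also passed with total-count scaling (0.0474 and 0.0271), where 3562 of 13427 genes were called. Their log2 differences were 0.15 and 0.14 without siControl 1, and 0.15 and 0.15 without siControl 2. Ereg (interval -0.22 to 0.10), Nrg1 (-0.74 to 0.07), Erbb3 (-0.85 to 0.27) and Areg (-0.52 to 2.88) did not pass, with adjusted p from 0.207 to 0.567. The groups did not overlap for 6 of the 8 genes, against a background of 72.5%. Total-count scaling moved the split of all called genes to 2222 higher and 1340 lower, against 1637 and 1847.

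**Figure D4:**
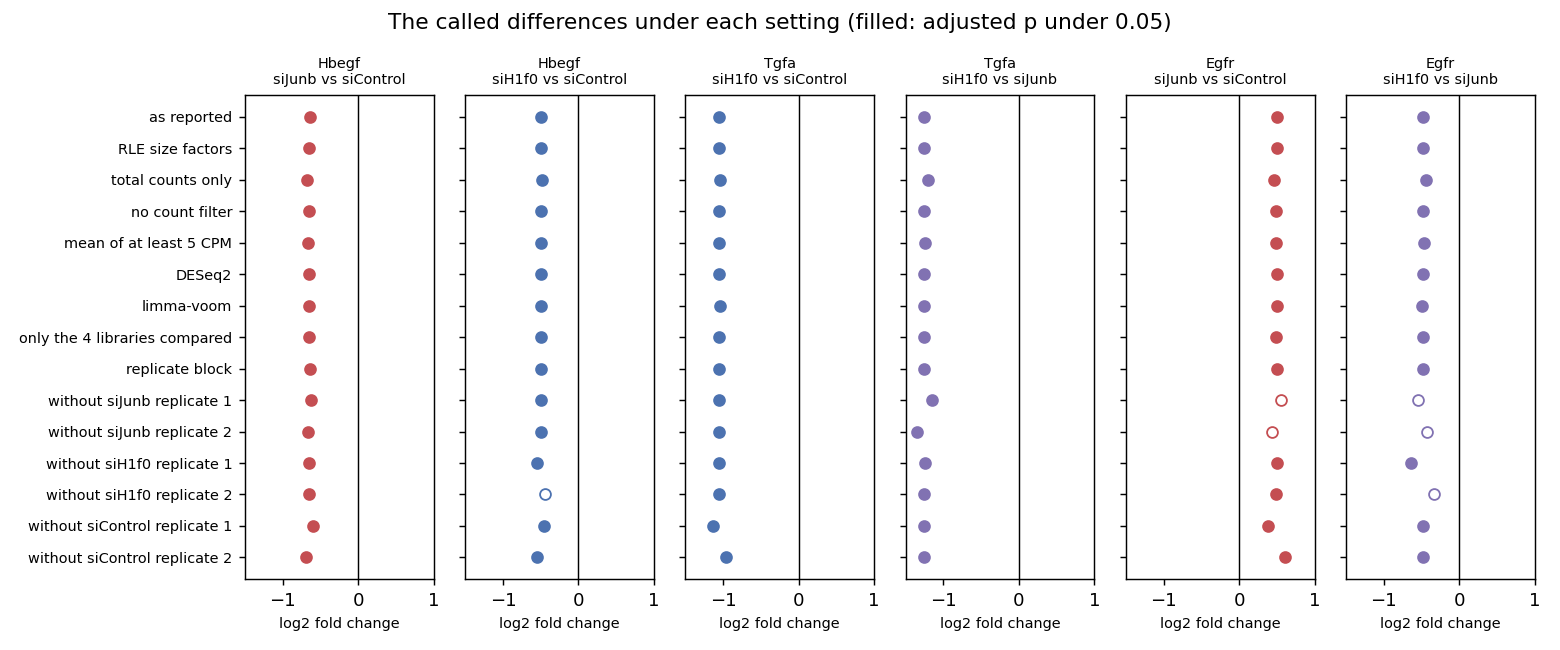
log2 fold change of the 6 called differences under each setting, 1 panel per gene and comparison, filled where the adjusted p was under 0.05. Direction is the same in every panel; open points are Egfr without either siJunb library, Egfr without siH1f0 2 in siH1f0 against siJunb, and Hbegf without siH1f0 2.

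Promoter sequence was searched for TGANTCA, where N is any base, because Junb is a subunit of AP-1. This pattern takes in the AP-1 site but is wider than it. The RefSeq promoter table (GRCm38.p6; 250 bases before to 50 after the start) held 4 of the 8 genes: Egfr, Tgfa, Erbb2 and Areg. None of the 4 windows had TGANTCA on either strand, a motif held by 7.81% of 32851 promoters. The related cyclic AMP response site TGACGTCA was found once, in Areg, and is held by 1.79% of promoters. The GC box GGGCGG, chosen after the sequences were seen, was found on either strand in Tgfa (2 times), Areg (2 times) and Egfr (1 time) and in 35.7% of promoters, and TATAAA, also chosen later, in Areg alone of the 4 and in 13.6% of promoters. The G and C content was 70.7% in Tgfa, 66.0% in Erbb2, 62.3% in Egfr and 59.3% in Areg, against a median of 52.7%. The 250 bases before the start are shown for Egfr (chr11:16751953-16752202, plus strand), which was called in siJunb, with the GC box, here on the minus strand, in capitals.
Egfr: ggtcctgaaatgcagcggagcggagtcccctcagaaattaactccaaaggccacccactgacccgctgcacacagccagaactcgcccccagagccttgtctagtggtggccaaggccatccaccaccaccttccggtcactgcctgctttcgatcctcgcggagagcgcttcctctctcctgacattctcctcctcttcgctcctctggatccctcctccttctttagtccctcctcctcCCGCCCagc
A match, or its absence from this window, says nothing of the factor's binding.

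Outside the 8 genes, the other ErbB ligands were scarce except for Nrg2. Nrg2, which encodes neuregulin 2, was at 12.6 and 12.4 CPM in siJunb, 11.5 and 11.5 CPM in siH1f0, and 11.1 and 9.73 CPM in siControl. Egf, Btc and Nrg4 ranged from 0.233 to 1.18 CPM, Epgn had 2 to 10 counts per library, and Nrg3, like Erbb4, had 0 counts throughout. Of the 4 measured members of this list 1 rose in siJunb and 0 fell (median log2 fold change 0.18, against 0.00 over all tested genes, of which 8.63% rose and 7.82% fell). Nrg2 was the member that rose (0.30, edgeR adjusted p = 0.0471), and its call was lost without any library except siControl 1. It was also lost with limma-voom (0.0513) and with a mean of at least 5 CPM (0.0577). The same held with the replicate number as a block (0.0686), with total-count scaling (0.0801) and with only the 4 libraries compared (0.110). In siH1f0 0 of the 4 were called (median 0.01), where 6.55% of all tested genes were called. There were 0 at an unadjusted p under 0.05 in edgeR and 0 by DESeq2 or limma-voom.

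Of 10 measured genes for ligand shedding, 2 rose in siJunb and 0 fell (median 0.12), against a background of 8.63% of all tested genes called higher and 7.82% lower. Adam19, an ADAM protease that can cut neuregulin precursors, was at 188 and 183 CPM in siJunb, 100.3 and 101 CPM in siH1f0, and 83.9 and 96.0 CPM in siControl. Its log2 fold change in siJunb was 1.08 ± 0.07 (SE; edgeR adjusted p = 9.28e-05). Adam9, another ADAM protease, rose by 0.48 in siJunb (adjusted p = 0.00181). Both calls held without each library in turn. In siH1f0 edgeR called 0 of the 10 (median 0.07), where 6.55% of all tested genes were called. At an unadjusted p under 0.05 in edgeR there were 2, and the share of all genes at that level was not computed. DESeq2 called 1, where it called 1194 of 13427 genes, and limma-voom called 0. Both genes were lower there than in siJunb, by -0.93 for Adam19 and -0.44 for Adam9 (adjusted p = 5.97e-05 and 0.00119), as was Rhbdf2, the gene of an iRhom that escorts Adam17 (-0.42, adjusted p = 0.00430; lost without siJunb 1 or siH1f0 2, 0.0525 and 0.0628). These 3 were the called members of the list between the knockdowns, where 25.9% of all tested genes were called. Adam17 itself, the protease that releases most EGF receptor ligands, was at 184 and 196 CPM in siJunb, 205 and 206 CPM in siH1f0, and 172 and 181 CPM in siControl, and did not pass in either knockdown (0.14 and 0.20; adjusted p = 0.108 and 0.0594).

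Among 12 measured genes for receptor inhibitors and turnover, 2 rose and 3 fell in siJunb (median 0.09; background 8.63% higher and 7.82% lower), and 1 rose and 1 fell in siH1f0 (median 0.05; background 2.27% and 4.27%). Rnf41, a ubiquitin ligase known for the turnover of Erbb3, was at 51.6 and 48.5 CPM in siJunb, 77.0 and 73.5 CPM in siH1f0, and 78.2 and 76.5 CPM in siControl. It fell by 0.59 on the log2 scale in siJunb (edgeR adjusted p = 5.12e-04) and was higher by 0.54 in siH1f0 than in siJunb (adjusted p = 3.30e-04), and both calls held without each library in turn. The receptor inhibitor Lrig1 rose by 0.22 and the ubiquitin ligase gene Cblb fell by 0.36 in siJunb (adjusted p = 0.0174 and 0.0208), both lost without either siJunb library (up to 0.180) and Lrig1 also without either siH1f0 library. To complete the count, the phosphatase genes Ptprj (0.45) and Ptpn12 (-0.20) were called in siJunb (adjusted p = 0.0392 and 0.0231), both lost without any single siJunb or siH1f0 library (up to 0.213), and Ptprj also with the block (0.0564); these were named after their values were seen. Errfi1, an inhibitor that binds the receptor's kinase domain, rose by 0.25 in siH1f0 and Ptpn12 fell by 0.20 (adjusted p = 0.0409 and 0.0449), both lost without any single siJunb or siH1f0 library (up to 0.368) and with the replicate number as a block (0.0798 and 0.0822), and Ptpn12 also with total-count scaling (0.0523). Between the knockdowns 2 were higher and 1 was lower in siH1f0 (background 12.2% and 13.8%): Rnf41, Errfi1 (0.27, adjusted p = 0.0102, lost without any single siJunb or siH1f0 library, up to 0.0971) and Ptprj (-0.84, adjusted p = 0.00193).

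Of 23 measured genes of the relay from receptor to MAP kinase and PI3 kinase, 1 rose and 1 fell in siJunb (median 0.05; background 8.63% higher and 7.82% lower): Pik3cb, a PI3 kinase catalytic subunit (0.31; edgeR adjusted p = 0.00769), and Nras (-0.19; adjusted p = 0.0379). Both were lost without either siJunb library (up to 0.286), and Nras also without either siH1f0 library and with the replicate number as a block (0.0732). In siH1f0 0 rose and 2 fell (median 0.04; background 2.27% and 4.27%): Map2k2, a MAP kinase kinase, at 147 and 147 CPM in siH1f0 against 216 and 192 CPM in siControl (-0.49, adjusted p = 0.00287), and Mapk3, which encodes ERK1 (-0.26, adjusted p = 0.0328). Map2k2 lost its call without siH1f0 1 (0.0655) or siH1f0 2 (0.0611), and Mapk3 without any single siJunb or siH1f0 library (up to 0.326) and with the block (0.0659). Between the knockdowns 1 was higher and 5 were lower in siH1f0 (median -0.04; background 12.2% and 13.8%), led by Pik3cb (-0.44), Map2k2 (-0.47) and Nras (0.32), with adjusted p of 7.84e-04, 0.00101 and 0.00224. These 3 calls held without each library in turn, and the other 3 each lost theirs without at least 3 of the libraries.

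Of 15 genes that respond to MAP kinase signalling, 3 were called in siJunb, where 16.5% of all tested genes were, and 3 in siH1f0, where 6.55% were. In siJunb 2 rose and 1 fell (median 0.09): the MAP kinase phosphatase gene Dusp5 (0.59; edgeR adjusted p = 0.00986) and the feedback inhibitor genes Spry2 (0.26; 0.0218) and Spred1 (-0.32; 0.0133). All 3 were lost without siJunb 1 (up to 0.197), Spry2 and Spred1 also without siJunb 2, and Spry2 also without either siH1f0 library. In siH1f0 0 rose and 3 fell (median -0.13): Myc (-0.56; adjusted p = 0.00188), the ETS factor gene Etv4 (-0.56; 0.0325) and Dusp5 (-0.48; 0.0430). Myc, at 58.0 and 55.0 CPM in siH1f0 against 85.2 and 79.8 CPM in siControl, held without each library, whereas Etv4 and Dusp5 were lost without any single siJunb or siH1f0 library (up to 0.300). Between the knockdowns 2 were higher and 7 were lower in siH1f0 (median -0.27), with background shares of 12.2% and 13.8% of all tested genes. Dusp5 was at 9.60 and 7.94 CPM in siH1f0, against 19.2 and 16.3 CPM in siJunb, a log2 fold change of -1.07 ± 0.11 (SE; adjusted p = 3.67e-04), followed by Myc (-0.59) and Spry2 (-0.39). These 3 calls held without each library in turn, and the other 6 each lost theirs without at least 3 of the libraries. Summed cardiomyocyte marker RNA, at 158 and 167 CPM in siH1f0 against 116 and 118 CPM in siJunb, moved between the same groups, with Tnnt2 not called. Its part in these differences was not tested.

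**Figure D5:**
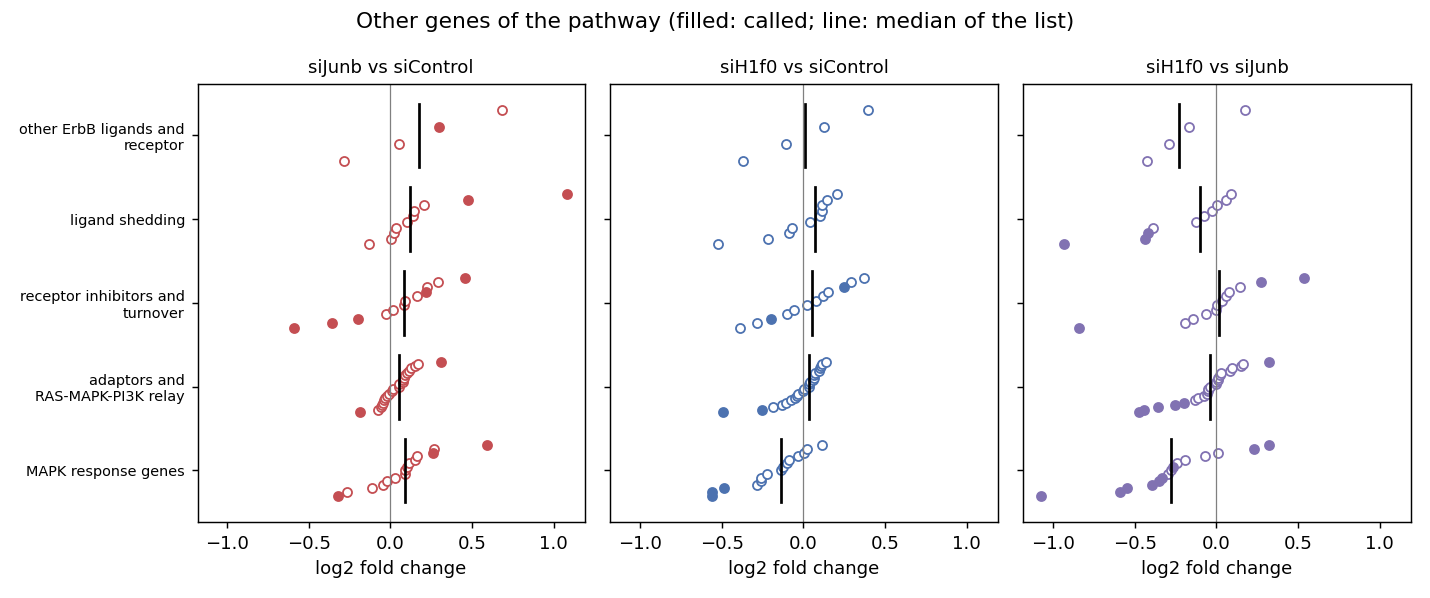
log2 fold changes of the other genes of the pathway, 1 panel per comparison and 1 band per list, with called genes filled and the median of each list as a black line. The MAP kinase response genes lie mostly below 0 in siH1f0 against siJunb, with a median of -0.27, while the medians of the relay genes lie between -0.04 and 0.05.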

How the data were processed

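The 6 poly(A) RNA libraries were made from an induced mouse fibroblast line, 2 per group, grouped by their titles. The authors deposited raw, whole-number counts per gene symbol, without normalisation, beside a gene length in bases (an other value in the deposited table). According to the submitters' processing notes, HISAT2, Subread and featureCounts were used with mm10, and no versions are named. Annotation release, strandedness of counting and handling of multi-mapped reads were not given in the sources used here, so reads of overlapping genes cannot be told apart.

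The test was edgeR 4.0.16 in R 4.3.3 (filterByExpr, TMM factors of 0.979 to 1.02, quasi-likelihood F test with group as the only term, all 6 libraries, 3 residual degrees of freedom). The threshold was a Benjamini-Hochberg adjusted p of 0.05 over 13427 genes. With 2 libraries a group, the smallest two-sided p of an exact permutation test is 0.333, so a single gene is called only through variance information pooled over genes. CPM and RPKM were computed from the library totals, and fold changes from the TMM-scaled counts. Errors are SDs over libraries, SEs of the log2 fold change, or 95% intervals with the test's degrees of freedom. Limits from a count of 0 cover counting error only. Median counts per tested gene ran from 1484 to 2682.

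Alternatives comprised RLE factors, unscaled totals, no filter, a 5 CPM minimum for the mean, DESeq2 1.42.0, limma-voom (limma 3.58.1), fits on the 4 libraries of a comparison, a replicate block, and leaving out single libraries, where the lone library of a group is assumed to vary like the others. The code was tested on simulated data. The 8 genes and the lists were chosen with earlier results of these data known. Named were the 8 genes, the siRNA targets, per list all called members up to 3 or otherwise the 3 with the smallest p, and the 3 genes most like each member with a mean of at least 5 CPM. Coordinates are from the RefSeq GRCm38.p6 gene table, coding sequences from GENCODE M21 and promoters from RefSeq (GRCm38.p6).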

Additional observations from a re-analysis of the deposited data

How the results depend on the processing

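The 6 called differences of Hbegf, Tgfa and Egfr kept their direction under all 14 alternatives, and 3 of them (Hbegf in siJunb, Tgfa in siH1f0 and Tgfa in siH1f0 against siJunb) kept their call without each library in turn. Of 47 called results of the 8 genes and the 5 pathway lists, without the siRNA targets and the markers, 17 did so. Leaving out each library gave 1 to 4 of the 8 genes called in each of the 3 comparisons, and over all genes 352 to 5521 calls for siJunb (2209 with all libraries), 116 to 4932 for siH1f0 (879) and 1304 to 6435 for siH1f0 against siJunb (3484). With only the 4 libraries compared these counts were 1094, 325 and 6416, and 4 of the 8 genes were called in siH1f0 against siJunb, as also with total counts only. The fits on 4 libraries lost the siJunb calls of H1f0 (edgeR adjusted p = 0.0616), Nrg2 (0.110), Lrig1 (0.0620), Nras (0.0960), Ptprj (0.0650), Ptpn12 (0.0708) and Spry2 (0.0597). In siH1f0 they lost Errfi1 (0.116), Ptpn12 (0.133), Mapk3 (0.103), Etv4 (0.0804) and Dusp5 (0.0821). With no count filter siH1f0 had 1921 calls. The cause of these shifts was not tested. Differences that were not called changed sign when a library was left out for Erbb2 (-0.0507 to 0.00978) and Nrg1 (-0.33 to 0.0839) in siJunb and for Areg (-0.45 to 0.67), Egfr (-0.14 to 0.16), Erbb3 (-0.0281 to 0.45) and Ereg (-0.0217 to 0.12) in siH1f0. The replicate numbers are not said to mark a shared day, and deviations of same-numbered libraries were hardly correlated (0.048, -0.041 and 0.063). With the replicate number as a block the calls were 1684, 550 and 2919, and 2 of the 8 genes passed in each comparison. DESeq2 gave no adjusted p for Areg in either knockdown, and a mean of at least 5 CPM drops Areg, Nrg1 and Erbb3. Depth limits Areg, at 2 to 15 counts, and Erbb3, at 55 to 86.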

Other observations

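The genes whose pattern over the 6 libraries most resembled that of a member were searched among 9913 genes with a mean of at least 5 CPM. The measure was Pearson's r of log2(TMM-scaled CPM + 1), which takes no account of the size of a change. With 6 libraries in 3 groups, high values are common, so they are given as a description. Tgfa had 251 genes at r of at least 0.95, more than Egfr (84), Hbegf (53), Ereg (43) and Erbb2 (17). Those closest to Tgfa were Nisch, Ubn1 and Pacs2 (r = 0.996 each). Nisch, which encodes nischarin, was at 606 and 593 CPM in siJunb, 406 and 397 CPM in siH1f0, and 569 and 597 CPM in siControl, so it shared the low level in siH1f0. Closest to Hbegf were Elmod3 (0.993), Tmem53 (0.991) and the small nucleolar RNA host gene Snhg5 (0.990). Snhg5 was at 17.9 and 18.4 CPM in siJunb, 19.8 and 19.6 CPM in siH1f0, and 27.3 and 26.0 CPM in siControl. Closest to Egfr were Urb1 (0.997), Zc2hc1a (0.994) and St7l (0.994), to Ereg Zfp65 (0.989), Cad (0.986) and Nmt1 (0.985), and to Erbb2 Ccsap (0.992), Cfb (0.992) and Slc35d1 (0.976). Urb1 ran only from 34.2 to 38.3 CPM, while Egfr ran from 9.98 to 15.6 CPM. Ereg was not called in any comparison, and Cad ran from 144 to 155 CPM and Nmt1 from 116 to 123 CPM.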
